A study of Homo sapiens with 2 samples.

Results

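Nonsense-mediated decay (NMD) transcripts are spliced RNAs that the GENCODE annotation marks as probable substrates of the NMD pathway, which removes messages whose stop codon lies too far upstream of the last exon junction. Members were selected on their TPM: a transcript was taken when GENCODE release 29 gives it this class and its mean TPM over both libraries was at least 2. TPM is an abundance of transcripts corrected for transcript length and scaled to a fixed total in each library. These conditions took 1310 transcripts of 1081 genes, out of 14741 NMD transcripts matched and 184844 transcripts listed in all. Since TPM chose the members, their levels are a description. Just inside the limit lay transcripts of N6AMT1, NPRL3 and ZSWIM7 (means of 2.00063, 2.00279 and 2.00597 TPM), and just outside it transcripts of PRELID3B, ENSG00000262633 and MFSD9 (1.99613, 1.99531 and 1.99351 TPM).

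During splicing an exon junction complex is left near each exon junction, and the first ribosome to translate the message strips these complexes off. Where translation ends upstream of such a complex, the helicase UPF1 and its partners UPF2, UPF3 and SMG1 mark the RNA for destruction. Many splicing regulators use this route on themselves, by directing their own transcripts towards an exon that carries a stop codon. The level of an NMD transcript in RNA-seq is what remains after decay, so the values below say nothing of how fast any transcript was made or removed.

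The cells were HepG2, a human liver cancer line, and in both groups they carried a cassette that switches on SAMD4B, which belongs to the Smaug family of RNA-binding proteins, when doxycycline (Dox) is given. Polyadenylated RNA was sequenced from 1 library of cells grown without Dox and 1 library of cells grown with 1 µg/ml Dox for 48 h, to learn which transcripts differ when SAMD4B is induced. With 1 library per group there is no spread between replicates and no p-value, and what follows compares 1 library with 1 other. Cells that lack the cassette but received Dox were not analysed here, so Dox itself and SAMD4B cannot be told apart. The labels state neither the promoter of the cassette nor whether the line is 1 clone.

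The libraries held an estimated 18047064 fragments without Dox and 23457983 with Dox on matched transcripts of at least 600 nt. SAMD4B, the induced gene, summed to 47.5 TPM in the library without Dox and to 261 in the other. Hepatocyte genes were high in both, with AFP at 13406 and 12140 TPM and APOA1 at 2760 and 2184. Markers of other cells were low or at 0 (PTPRC 0 and 0, COL1A1 0.20 and 0.14, PECAM1 4.57 and 4.55 TPM), except ACTA2, at 61.3 and 36.7 TPM. In such bulk samples, fewer cells of a type and less RNA per cell cannot be told apart.

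The end of the reading frame is what sets these transcripts apart, so the last 27 coding bases and the stop codon (in capitals) are shown for members that the results turn on. The first 4 are among the most abundant members, the next 4 had some of the largest share differences, and the last 3 come from SR proteins, which regulate splicing. They were read 5′ to 3′ from the GENCODE release 29 transcripts.
HNRNPA1 ENST00000547566: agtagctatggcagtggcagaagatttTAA
PDIA3 ENST00000434494: gaagaggagagtctcctccagcctcatTGA
RPS3 ENST00000532872: gtctgggaaactccgaggacagagggcTAA
HNRNPA2B1 ENST00000360787: gggggttatggtgggaggagccgatacTGA
SFXN2 ENST00000459894: ctgcggctaactgtgtcaatatccccaTGA
ACTR10 ENST00000545307: aactcaactattggaacaatgtactgtTGA
TFE3 ENST00000493583: ggcccaggcgcaggagcaggagaggcgTGA
RRP7A ENST00000416699: ggggcggaggtgatgctaaggctctccTGA
SRSF1 ENST00000583741: gccttcgttgagttcgaggacccgcggTGA
TRA2B ENST00000456380: aatgagtatttgaagctcaggaataagTGA
SRSF3 ENST00000477442: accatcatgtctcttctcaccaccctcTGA

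On GRCh38 the stop codon of the HNRNPA1 transcript is at chr12:54284311-54284313 on the plus strand, after 320 residues. A listed coding transcript of the gene has the same stop, and the last junction of the NMD transcript lies 75 nt further downstream, in what is then the 3′ untranslated region (UTR). The HNRNPA2B1 stop (chr7:26192516-26192518, minus strand) is of the same kind, 157 nt before the last junction. In PDIA3 (chr15:43751630-43751632, plus strand) the stop comes after 71 residues, with 12 junctions downstream and in sequence that the gene's most abundant coding transcript lacks. The RPS3 stop (chr11:75404110-75404112, plus strand) lies in an exon of that gene's main coding transcript, after 115 residues.

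The stops of SFXN2 (chr10:102729796-102729798, plus strand), ACTR10 (chr14:58215241-58215243, plus strand) and TFE3 (chrX:49039246-49039248, minus strand) also lie in exons of the main coding transcript. The RRP7A stop (chr22:42518640-42518642, minus strand) and those of SRSF1 (chr17:58006940-58006942, minus strand) and SRSF3 (chr6:36599852-36599854, plus strand) lie in sequence that transcript lacks. The TRA2B stop (chr3:185931772-185931774, minus strand) follows 38 residues and is also used by another listed coding transcript. From the stop to the last junction the distance was 391 nt in SRSF1, 548 nt in SRSF3 and 1015 nt in TRA2B.

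Across the members the structure followed the annotation rule. Of the 1305 with an annotated stop, 1298 (99.5%) had a junction at least 50 nt downstream of it, against 74 of 15110 coding transcripts (0.49%) of the same minimum level with complete ends. The annotation assigns the class by this distance, so the contrast describes the class and is no finding. The median distance was 362 nt, with 3 junctions downstream. The reading frames were short, with a median of 270 coding bases against 1221 for coding transcripts, while the 3′ UTRs were of like length (811 and 742 nt). The members here include those with an incomplete coding start, which the coding set leaves out, so the frame lengths are of unlike sets. TGA ended 54.9% of the members' frames and 49.2% of the coding transcripts' frames.

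The stop lay in an exon of the gene's main coding transcript in 634 members, as where a skipped exon shifts the frame. In 476 it lay in sequence that the main coding transcript lacks, such as an inserted exon, and in 163 it was the stop of a listed coding transcript. For 32 members no coding transcript of the gene was listed, and 5 had no annotated stop. The coding start or end was incomplete in 259 members. Most genes had 1 member (906), 139 had 2 and 36 had at least 3, and RBM39, a splicing factor, had the most with 8.

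As a whole the class held the same part of the RNA in both libraries. All 14741 NMD transcripts together took 2.10% of the TPM in the absence of Dox and 2.09% in its presence, and the members took 1.84% and 1.80%. A share below is a member's TPM as a percentage of the summed TPM of its gene's matched transcripts. It could be computed for 1292 members, since the other 18 are the only matched transcript of their gene. The median share was 11.8% without Dox and 11.9% with Dox.

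Shares were higher with Dox for 636 members (49.2%), lower for 650 and equal for 6. The background, all transcripts with a mean of at least 2 TPM in genes with at least 2 listed, was 48.5% higher. The median difference was -0.01 percentage points, and the quartiles were -2.76 and 2.83 points. A share was at least 10 points higher for 85 members (6.58%, background 7.99%) and at least 10 points lower for 86 (6.66%, background 8.71%). It was within 5 points for 868 (67.2%). The counts in both directions were close to each other, and those past 10 points were below the background both ways.

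Protein-coding transcripts moved by 10 points more often, 8.23% of 17317 higher and 9.27% lower, and retained-intron transcripts less often, 4.75% of 2061 higher and 5.63% lower. Coding transcripts of the members' own genes were at 4.93% higher and 5.63% lower (2291 transcripts). The median share without Dox was 33.9% for coding transcripts as a whole, 19.7% for coding transcripts of the members' genes and 11.8% for the members.

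**Figure D1:**
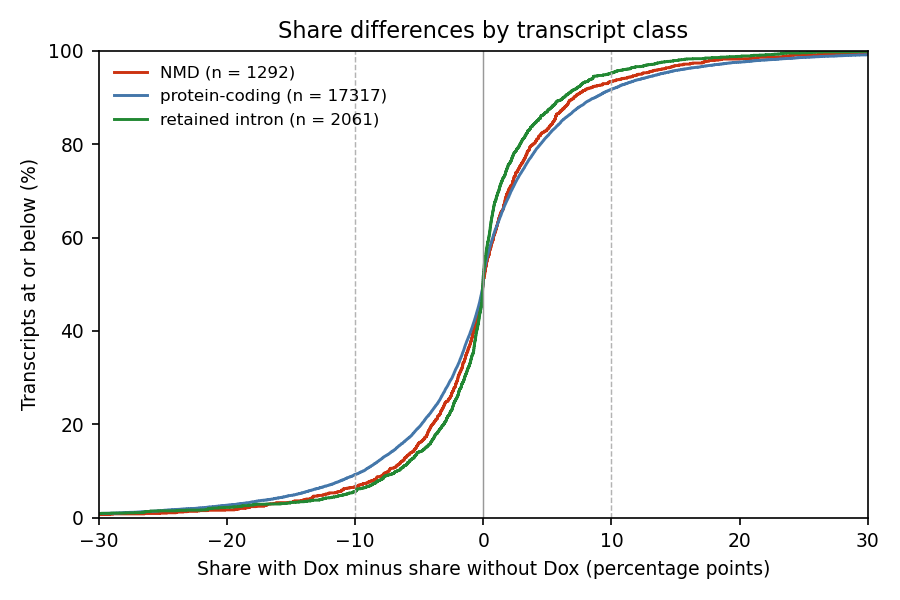
Share with Dox minus share without Dox, in percentage points (horizontal axis), against the percentage of transcripts at or below that difference (vertical axis), for NMD transcripts (n = 1292), protein-coding transcripts (n = 17317) and retained-intron transcripts (n = 2061) with a mean of at least 2 TPM. All 3 curves cross 0 near the middle, and the NMD curve runs between the others at -10 and 10 points, where dashed lines are drawn.

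In levels, 73 members (5.57%) were at least 2-fold higher with Dox on the scale of TPM plus 1, where 4.63% of all transcripts of the same minimum were. Another 82 (6.26%) were at least 2-fold lower, against a background of 4.26%. The members' median log2 fold change was 0.01, with quartiles of -0.35 and 0.35. The background lies at a higher level, with a median mean of 7.01 TPM against 4.66 for the members. By class, 5.58% of retained-intron transcripts were higher and 7.28% lower. The percentages were 9.33% and 7.81% for GENCODE's processed transcripts, and 3.81% and 3.27% for protein-coding transcripts. The gene itself was at least 2-fold higher for 3 of the 73 and at least 2-fold lower for 2 of the 82. Of all genes of at least 1 TPM, 1.62% were higher and 0.992% lower by as much. In ENSG00000262526, ENSG00000271741 and ENSG00000167774, which are among these cases, the member is the only matched transcript and so equals its gene. The 73 higher and 82 lower members were low, with median means of 3.21 and 3.15 TPM.

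A member listed at 0 in 1 library met the limit through the other library alone and so had to differ. There were 43 such members (3.28%, background 2.95%), of which 21 were at 0 without Dox and 22 at 0 with Dox. They supplied 21 of the 73 higher and 22 of the 82 lower members. The highest of them was the TIMMDC1 transcript ENST00000498399, at 0 and 12.3 TPM. Without these 43, 4.1% of members were higher by at least 2-fold and 4.74% lower.

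**Figure D2:**
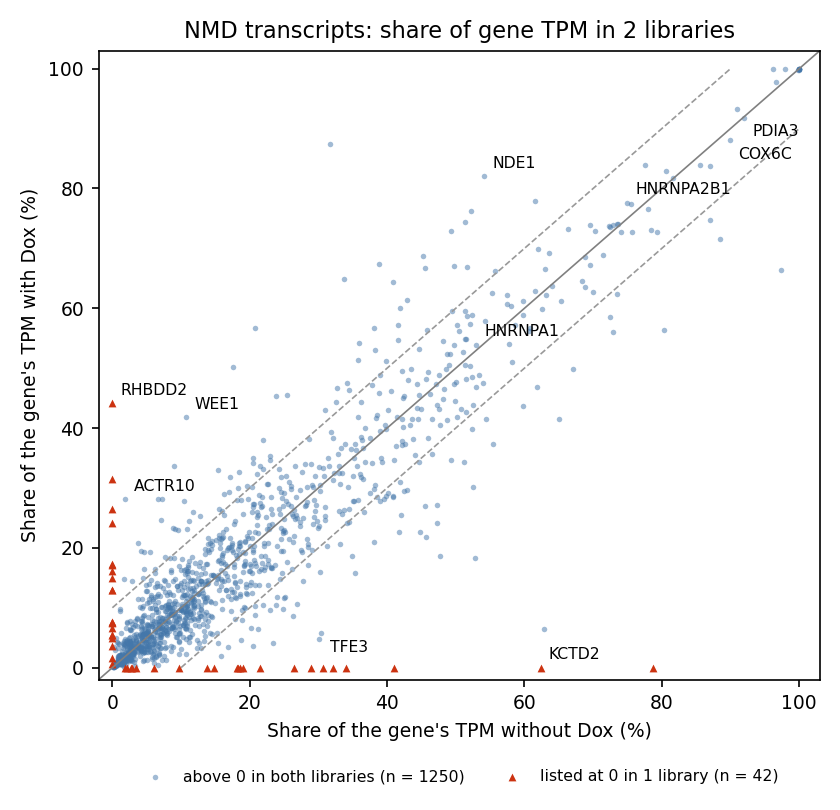
Share of the gene's TPM without Dox (horizontal axis, %) against the share with Dox (vertical axis, %), with 1 point for each of 1292 NMD transcripts. Most lie between the dashed lines at 10 points from equality, red triangles on the axes are the 42 listed at 0 in 1 library, and labels name some of the members described in the text.

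Shares in both libraries were close for members of abundant genes and spread for members of low ones. In genes with a mean of 2 to 10 TPM the median size of the share difference was 14.9 points (57 members), in genes of 10 to 30 TPM 5.64 points (351), in genes of 30 to 100 TPM 2.74 points (529) and above 100 TPM 1.13 points (355). Above 100 TPM, 3 members were at least 10 points higher and 0 were lower by as much. The median share without Dox was 45.6%, 21.6%, 10.6% and 3.73% in the same order, since a member of a low gene needs a large share to reach 2 TPM, and a difference in points is bounded by the share. Over all 1292 members Pearson's r between the shares in the 2 libraries was 0.91, a description across transcripts that share the same libraries and, in part, the same genes.

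**Figure D3:**
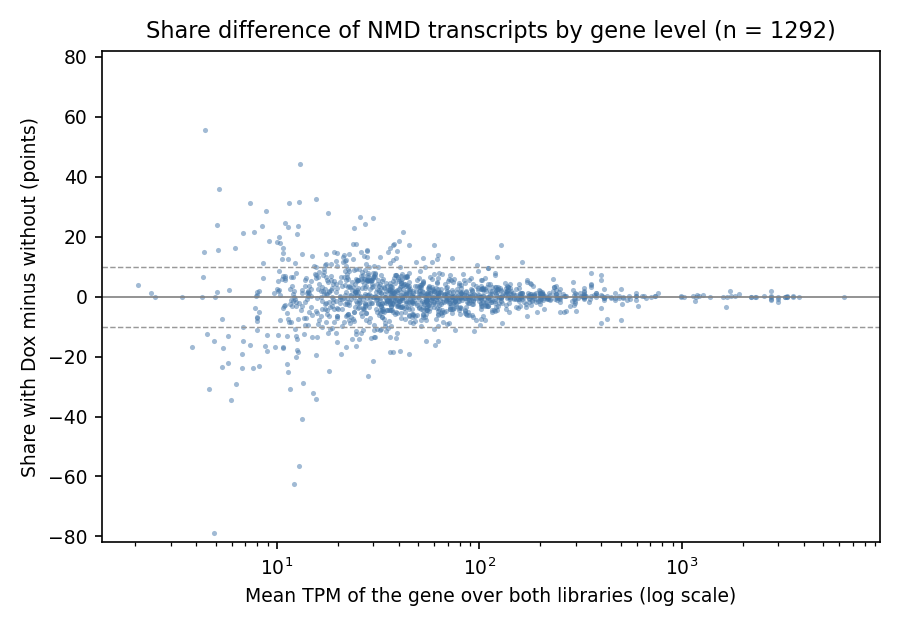
Mean TPM of the gene over both libraries (horizontal axis, log scale) against the member's share with Dox minus without Dox (vertical axis, percentage points), 1 point per NMD transcript (n = 1292). The points narrow towards 0 as the gene level grows, and the dashed lines are at 10 and -10 points.

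How much sequence a member has to itself differed widely. A median of 28 windows of 31 bases per member occurred in no other listed transcript of its gene, and 358 members had 0 such windows, so their TPM rests on how fragments were divided among transcripts. Of 148 members with at least 200 such windows, 4 were at least 2-fold higher and 1 lower, and 1 was listed at 0 in 1 library. Of 511 members with 1 to 30 windows, 38 were higher and 41 lower, and 26 were listed at 0 in 1 library. The 358 with 0 windows did not continue this order, with 18 higher, 21 lower and 8 listed at 0 in 1 library. The part that the division of fragments has in these differences was not tested.

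The most abundant member was the HNRNPA1 transcript ENST00000547566, from the gene of an hnRNP, a protein that packages nuclear RNA. In the absence of Dox it was at 1089 TPM, in its presence at 956, and its share was 52.9% and 53.9%. Ratios of estimated fragments, corrected for depth, are given with exact 95% intervals that cover counting error only. The depth is that of matched transcripts of at least 600 nt, which puts each member's ratio slightly below its ratio of TPM. The intervals leave out this offset. For the HNRNPA1 transcript the ratio was 0.85 (0.84 to 0.87). The whole gene was lower by about as much, at 2058 and 1774 TPM, so the share differed by 0.987 points, or by 2.24 in estimated fragments.

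TF encodes transferrin, the iron carrier of plasma. Its member ENST00000461695 was at 1083 and 885 TPM (33.5% and 32.5% of the gene) and ENST00000485977 at 433 and 317 TPM (13.4% and 11.6%). The PDIA3 member, from a gene for a protein folding enzyme of the endoplasmic reticulum, was at 649 and 644 TPM, with shares of 92.0% and 91.9%. It was thus the bulk of its gene's TPM in both libraries, although its frame codes for 71 residues.

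The RPS3 member, from a gene of the small ribosomal subunit, was at 588 and 501 TPM (20.4% and 19.2%), and the HNRNPA2B1 member at 379 and 383 TPM (75% and 77.7%). The COX6C member ENST00000522934, from a gene for a cytochrome c oxidase subunit, was at 323 and 295 TPM (89.9% and 88.1%). SLC2A1 encodes the glucose transporter GLUT1. Its member ENST00000630287 was the only one of these 8 whose level was clearly higher with Dox, at 245 and 367 TPM (ratio 1.46, interval 1.42 to 1.5). The whole gene was higher still, at 1180 and 2111 TPM, so the share was 20.7% without Dox and 17.4% with Dox.

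An NMD transcript held at least 50% of its gene's TPM in 108 cases without Dox and 112 with Dox, and in 85 cases in both. Of those 85, 75 had a coding transcript of the gene listed, and 57 of the 75 were shorter than it, with a median length of 1832 nt against 3140 nt. They were divided evenly between directions, with 39 higher and 34 lower with Dox and 6 past 10 points each way. For 5 of the 85, EIF3F and HSPA9 among them, a principal coding transcript of the gene is not among those listed, and such a share counts only listed transcripts. EIF3F, a subunit of a translation initiation factor, had its member at 206 and 215 TPM (74.0% and 72.7%), a difference of -1.31 points that was 2.3 in estimated fragments. HSPA9, a mitochondrial chaperone, had its member at 115 and 116 TPM (69.6% and 67.2%), a difference of -2.38 points that was -1.19 in estimated fragments. The HSPA9 member has 0 windows of its own.

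The largest increases in share are given next, among members above 0 in both libraries, in genes of at least 10 TPM in both. Shares of a gene sum to a fixed total, so each increase must stand beside a lower share elsewhere in the gene. SFXN2 encodes a mitochondrial sideroflexin. Its member ENST00000459894 was at 3.26 TPM in the library without Dox and at 6.45 TPM in the other, and its share at 17.6% and 50.2%, while a second SFXN2 member, ENST00000480358, was at 6.30 TPM and then listed at 0. Summed, the NMD share of SFXN2 was 51.6% and 50.2%.

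WEE1 encodes a kinase that holds back entry into mitosis. Its member was at 1.20 and 4.96 TPM, a share of 10.7% and 41.8% (ratio 4.03, interval 2.04 to 9.70), and a coding transcript of the gene was at 3.60 TPM and then listed at 0. The NDE1 member, from a gene for a dynein-binding protein of mitosis, was at 8.0 and 17.2 TPM (54.1% and 82.1%), and the coding transcript ENST00000396354 was at 6.78 and 3.68 TPM. A principal coding transcript of NDE1 is not among those listed, so this share counts only listed transcripts. The NDE1 member has no annotated stop and was matched to another version. ACTR10 encodes a dynactin subunit. Its member ENST00000545307 was at 0.65 and 7.13 TPM (1.90% and 28.1%, ratio 10.7, interval 6.15 to 21.8). A retained-intron transcript of 462 nt was at 14.1 TPM and then at 0. Another ACTR10 member, ENST00000555229, was at 7.33 TPM (21.5%) and then at 0. The summed NMD share of ACTR10 was 51.8% and 70.9%. Shares were also taken over estimated fragments, which count transcripts of at least 600 nt and are not corrected for length, and there the WEE1 difference was 8.77 points in place of 31.1.

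IKBKB encodes the IKK beta kinase of NF-kappa-B signalling, and its member was at 1.04 and 3.44 TPM (8.92% and 33.6%). This member has 0 windows of its own, and the coding transcript ENST00000520835 of IKBKB was at 2.73 TPM and then at 0. The member of ENSG00000170846 was at 49.3% and 73.0%, and that of TVP23C-CDRT4, a readthrough gene, at 45.3% and 68.7%. NOL12, a nucleolar protein gene, had its member, which also has 0 windows of its own, at 51.4% and 74.3%. That difference turned with the denominator, because a retained-intron transcript of NOL12 was at 11.4 and 5.04 TPM. Counted over coding and NMD transcripts alone it was -0.854 points, and in estimated fragments 14.3 in place of 22.9. For IKBKB the coding and NMD denominator gave 41.8 points in place of 24.7.

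The largest decreases, by the same limits, began with TFE3, a transcription factor of lysosomal genes. Its member was at 4.79 TPM in the library without Dox and 1.18 in the other, and its share at 30.4% and 5.75% (ratio 0.24, interval 0.18 to 0.32), while the coding transcript ENST00000315869 was at 10.6 and 17.9 TPM. The ZNF140 member, from a zinc-finger gene, was at 52.5% and 30.2%, and the HUS1 member, from a gene for a clamp loaded at damaged DNA, at 47.3% and 27.1%. RRP7A encodes a factor of ribosomal RNA processing, and its member was at 6.68 and 1.94 TPM (35.3% and 15.9%, ratio 0.28, interval 0.14 to 0.54). In estimated fragments the RRP7A difference was -3.82 points in place of -19.4, and that of HUS1 -13.1 in place of -20.2.

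BMPR1A encodes a receptor for bone morphogenetic proteins. One member, ENST00000636056, was at 9.15 and 2.11 TPM (23.3% and 4.13%), and another, ENST00000635816, at 1.48 and 10.7 TPM (3.76% and 20.9%), so that the summed NMD share was 27.1% and 25%. These 2 transcripts are 3233 and 3238 nt long and each has 30 windows of its own. MEIS2, a homeobox gene, showed the same exchange, with ENST00000314177 at 26.3% and 8.61%, ENST00000560570 at 7.25% and 28.1%, and sums of 33.6% and 36.7%. The HMBOX1 member was at 45.5% and 27% and the IFT57 member, from a gene of transport in cilia, at 51.2% and 34.2%. In estimated fragments the differences were smaller, at -11.1 points for BMPR1A ENST00000636056, -7.93 for HMBOX1 and -9.93 for IFT57, in place of -19.2, -18.5 and -17.0.

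**Figure D4:**
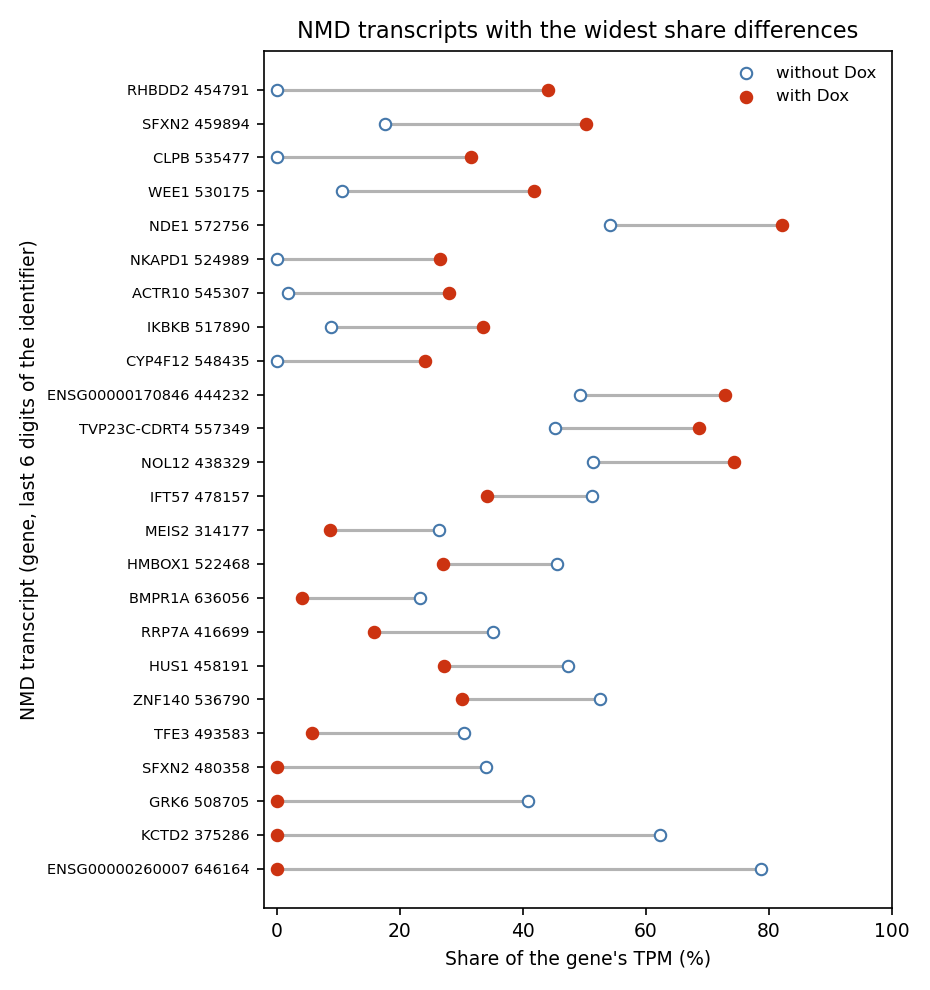
Share of the gene's TPM (horizontal axis, %) without Dox (open circles) and with Dox (filled circles) for the 24 members with the widest differences by the limits above, named by gene and the last 6 digits of the identifier (vertical axis). The upper 12 were higher with Dox and the lower 12 lower, and 8 of the 24 lie at 0 in 1 library.

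Among members listed at 0 in 1 library, those with the widest differences at the lower side were of ENSG00000260007 (6.61 TPM and 0, share 78.7% and 0), KCTD2 (8.68 TPM and 0, 62.3% and 0), GRK6, a kinase of G protein-coupled receptors (7.24 TPM and 0, 40.9% and 0), and SFXN2. In KCTD2 the coding transcript ENST00000322444 took the other side, at 5.24 and 10.2 TPM. On the higher side were RHBDD2, a rhomboid-like gene (0 and 5.28 TPM, share 0 and 44.2%), CLPB, a mitochondrial chaperone (0 and 4.04 TPM, 31.6%), NKAPD1 (0 and 6.13 TPM, 26.5%) and CYP4F12, a cytochrome P450 (0 and 5.6 TPM, 24.2%). The RHBDD2 and CYP4F12 members have 0 windows of their own. In RHBDD2 the coding transcript ENST00000318622 was at 5.18 TPM and then at 0, again an exchange between transcripts of a gene that summed to 14.2 and 11.9 TPM. In estimated fragments the GRK6 difference was -13.8 points in place of -40.9, and that of NKAPD1 7.62 in place of 26.5.

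This movement against other transcripts could be counted. Of the 84 members at least 10 points higher with a coding partner, the gene's most abundant coding transcript, the partner's share was lower in 63, by at least 10 points in 31. Of the 85 at least 10 points lower, the partner's share was higher in 65, by at least 10 points in 35. Shares of a gene sum to a fixed total, so some movement of the others in the opposite direction is built in. In levels, which are not bound in this way, the log2 fold changes of member and partner had an r of -0.01 over 1278 members, and those of member and rest of the gene an r of -0.03.

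Summing the members of each gene gave no direction either. Of 1063 genes with a share, the summed NMD share was higher with Dox in 529 and lower in 527, at least 10 points higher in 77 and lower in 75, and the median was 16.1% without Dox and 15.9% with Dox. Of 175 genes with at least 2 members, 105 had members of both signs, and 10 had members at least 10 points apart from 0 in opposite directions. These were ACTR10, BMPR1A, MEIS2, PPA2, SFXN2, TIMMDC1, UMPS, USP3, WDR48 and ZPR1. In 14 of 160 genes with a member past 10 points the sum stayed within 10 points, as in USP3, a ubiquitin protease (57.4% and 58.4%), and PPA2, a mitochondrial pyrophosphatase (53.8% and 53.0%).

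Counting error bore on many of the values. Intervals could be computed for 1100 members of at least 600 nt above 0 in both libraries, and 544 of them included a ratio of 1. Another 259 lay above 1 and 297 below it, counts that depend on the depth used for the ratios. In 25 the lower bound was at least 2, and in 33 the upper bound was at most 0.5. No such counts were made over all transcripts, so these have no background and do not set NMD transcripts apart. These intervals do not cover the division of fragments among transcripts.

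Some of the more abundant members with such intervals follow. DDX5 encodes an RNA helicase. Its member ENST00000540698 was at 54.5 TPM in the library without Dox and 23.8 in the other (ratio 0.42, interval 0.39 to 0.46). Its short member ENST00000578400, of 575 nt and so without an interval, was at 36.7 and 71.0 TPM. TKT, an enzyme of the pentose phosphate pathway, had a member at 23.9 and 9.43 TPM, TARDBP, the RNA-binding protein TDP-43, at 17.3 and 6.58 TPM, and MTA3, a chromatin repressor subunit, at 17.2 and 6.0 TPM. The TARDBP member has 0 windows of its own. Higher with Dox were members of GLG1, a Golgi glycoprotein (5.67 and 16.4 TPM), INPP5F, an inositol phosphatase (4.01 and 10.5 TPM), and METAP2, a methionine aminopeptidase (4.75 and 11.9 TPM). Apart from the short DDX5 member, these were chosen after their values were seen.

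Genes that were themselves at least 2-fold different gave few members. Of all 11595 genes of at least 1 TPM, 1.62% were higher by at least 2-fold, and 0.992% were lower by as much. SLC38A2, an amino acid transporter, was at 732 and 1593 TPM, while its NMD member was at 18.8 and 19.5 TPM, so the share was 2.57% and 1.22%. SLC2A3, the glucose transporter GLUT3, was at 386 and 879 TPM, with a member at 1.19 and 5.0 TPM. NABP1, a single-stranded DNA-binding protein, was at 14.2 and 30.2 TPM with a member at 2.85 and 4.19 TPM. On the lower side, TMEM208 was at 68.7 and 33.6 TPM. Its member was at 2.97 and 2.49 TPM, so the share was 4.32% and 7.41%.

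SR proteins and the TRA2 proteins bind exonic enhancers and are the textbook users of NMD on their own transcripts. Of their 10 members, 8 had a higher share with Dox and 2 a lower one, against 49.2% higher over all members. A single member was past 10 points, on the higher side, where the background was 7.99%. The median difference was 2.27 points, against -0.01 over all members. By gene, the summed NMD share was higher in 7 of the 8 genes with members, and the exception was SRSF2 (1.56% and 1.4%). Gene TPM was lower with Dox in 7 of the 8, so in 6 genes a higher NMD share stood beside a lower gene sum. Over all 1063 genes with members, 263 showed both.

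The SRSF1 member was at 64.4 and 64.2 TPM, nearly level, while the gene was at 205 and 191 TPM, and the share was 31.5% and 33.6%. TRA2B was of the same kind, with its member at 55.2 and 51.6 TPM, the gene at 168 and 144 TPM and shares of 32.8% and 35.7%. That TRA2B member has 0 windows of its own, and its share difference of 2.88 points was 1.01 over coding and NMD transcripts alone. The longer SRSF3 member was at 37.1 and 39.1 TPM (8.17% and 10.6%) in a gene of 454 and 368 TPM, while the other, of 595 nt, was at 17.0 and 9.43 TPM (3.73% and 2.56%). In estimated fragments the differences of SRSF1 and of the longer SRSF3 member were 1.21 and 1.14 points, in place of 2.17 and 2.45, and over coding and NMD transcripts alone that of SRSF3 was 3.84. The family had 7 members higher and 1 lower in estimated fragments (8 members) and 8 and 2 over coding and NMD transcripts alone, with medians of 1.18 and 1.46 points.

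For SRSF6 the share was 17.2% and 21.7%, and the gene was at 71.0 and 52.2 TPM. SRSF8 had the widest difference, a share of 41.6% and 57.2% for a member of 560 nt, and it alone among the 8 had a higher gene sum (24.4 and 31.5 TPM). Over all 1063 genes with members, the NMD share was higher in 49.3% of the 534 genes whose sum was lower. All 14 genes of the family were compared, of which 4 were higher and 10 lower with Dox and 0 past 2-fold, with a median log2 fold change of -0.10 against 0.02 over all genes, 52.9% of which were higher.

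The hnRNPs, which bind nascent RNA and often oppose SR proteins at splice sites, had 13 members with a share, 9 higher and 4 lower with Dox. Over all members 49.2% were higher. The hnRNP median difference was 0.50 points, against -0.01 over all members. By gene it was 7 of 9 higher, where 529 of all 1063 genes with members were. In 6 of these 7 the gene sum was lower, while 263 of the 1063 genes showed both. HNRNPU, a nuclear matrix RNA-binding protein, had the widest difference, a summed share of 27.5% and 38.7%. Its member ENST00000640056 was at 37.4 and 62.6 TPM (ratio 1.63, interval 1.51 to 1.76) but has 0 windows of its own, and ENST00000640306 was at 61.3 and 68.0 TPM. The HNRNPDL member was at 24.2 and 33.1 TPM, with shares of 7.66% and 12.6%, and also has 0 windows of its own. The HNRNPK member was at 75.6 and 73.8 TPM with shares of 11.4% and 11%. Of 30 genes compared, 12 were higher and 18 lower, with a median log2 fold change of -0.05.

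**Figure D5:**
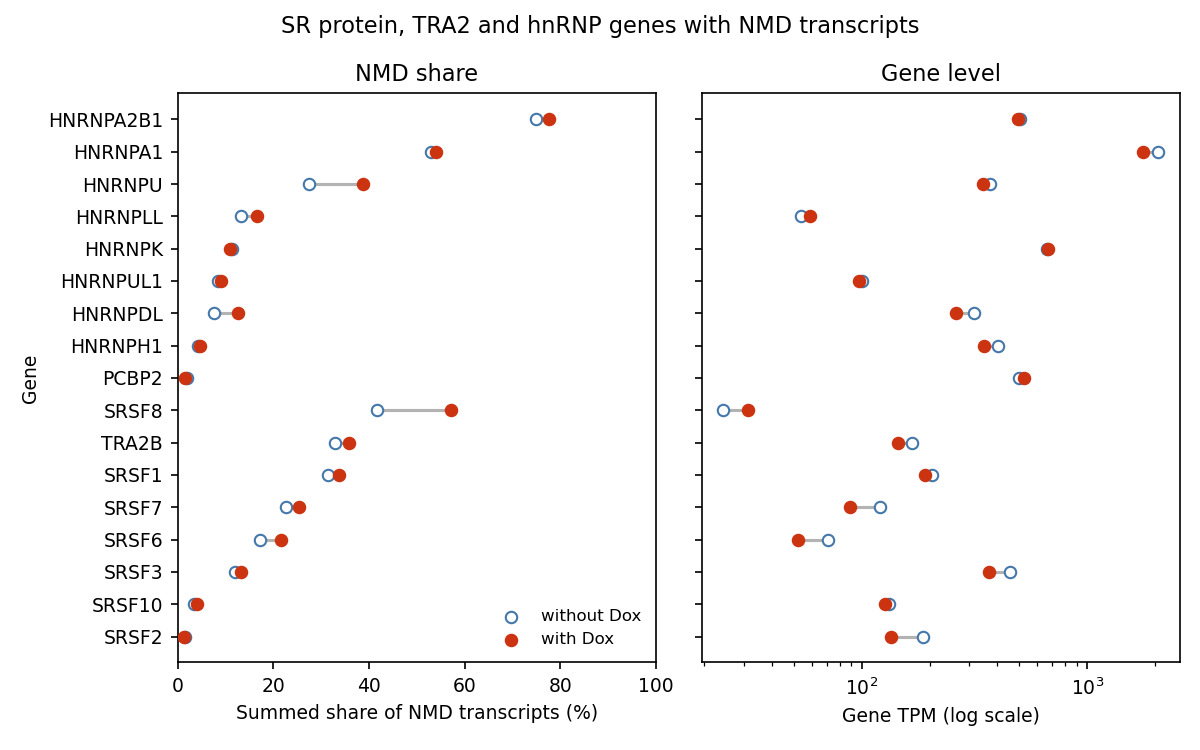
Left, summed share of NMD members (horizontal axis, %) for 17 SR protein, TRA2 and hnRNP genes (vertical axis). Right, the TPM of the same genes on a log scale. Open circles are the library without Dox and filled circles the library with Dox, and the filled circle lies to the right on the left panel and to the left on the right panel for 12 of the 17 genes. A higher NMD share beside a lower gene sum was seen in 263 of all 1063 genes with members.

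Other splicing factors and RNA-binding proteins had 36 members, 20 higher and 16 lower in share, and a median difference of 0.10 points. Past 10 points there were 0, where the background was 7.99% higher and 8.71% lower. SFPQ, a paraspeckle protein, had its member at 130 and 101.5 TPM (46.6% and 41.6%), and FUBP1, a KH-domain protein, at 49.6 and 58.3 TPM (54.2% and 57.8%). In estimated fragments these differences were -1.96 and 0.922 points, in place of -5.01 and 3.59, and that of FUBP1 was 0.493 over coding and NMD transcripts alone. The SFPQ member has 0 windows of its own. SAMD4B itself has no member.

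Factors that carry out NMD differed little. All 24 measured genes of the list, which holds the UPF and SMG proteins, the exon junction complex and the release factors, were within 2-fold, 14 higher and 10 lower, with a median log2 fold change of 0.03 and a range of -0.28 to 0.30. UPF1, the central helicase, was at 30.9 and 27 TPM, UPF2 at 22.5 and 24.9, SMG1, its kinase, at 37.6 and 38.1, and EIF4A3, the core of the junction complex, at 127 and 110. GSPT1, a release factor, was at 161 and 198 TPM. Of these genes 2 had a member, with shares of 4.49% and 3.29% for RUVBL2 and of 6.25% and 11.7% for MAGOHB. The MAGOHB member has 0 windows of its own.

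Stress genes with transcripts known as NMD substrates were read at gene level, and 7 of 12 were matched. The unmatched genes were GAS5, ZFAS1, SNHG1, SNHG12 and SNHG15, so the counts below do not cover them. GADD45B, a growth arrest gene, was at 10.3 and 23.5 TPM (ratio 2.31, interval 1.91 to 2.79), GADD45A at 28.4 and 43.1, and DDIT3, the stress factor CHOP, at 22.3 and 31.7. ATF4, the regulator upstream of DDIT3, was at 20.9 and 19.4 TPM, and ATF3 at 9.66 and 10.2. Of the list, 5 were higher and 2 lower with Dox, where 52.9% of all genes were higher. The 2 genes of the list with members had lower summed NMD shares with Dox, UPP1, a uridine phosphorylase, with 61.8% and 46.9%, and TBL2 with 49.4% and 45.6%.

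Ribosomal protein genes had 23 members, 10 higher and 13 lower, and their shares were small, with a median of 0.365% without Dox and 0.424% with Dox. Translation factors and tRNA synthetases had 24 members, 14 higher and 10 lower. Here a pair of subunits of the initiation factor eIF3 stood lower, EIF3L at 106 and 59.2 TPM (20.3% and 12.5%) and EIF3M at 84.9 and 52.3 TPM (19.7% and 12.3%, ratio 0.60, interval 0.52 to 0.70). The whole genes summed to 522 and 475 TPM for EIF3L, and for EIF3M to 432 and 425 TPM. Over coding and NMD transcripts alone the EIF3L difference was -17.9 points, in place of -7.81.

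Mitochondrial proteins had 46 members, 23 higher and 23 lower, with 5 (10.9%) and 2 (4.35%) past 10 points. The background was 7.99% higher and 8.71% lower, and the group is small. NDUFB5, a complex I subunit, had a member at 124 and 113 TPM (49.1% and 52.4%), and UQCRB, a complex III subunit, at 117 and 116 TPM (44.6% and 45.5%). Both differences changed sign with the scale, NDUFB5 from 3.23 to -1.74 points over coding and NMD transcripts alone and UQCRB from 0.83 to -1.88 in estimated fragments. Proteasome, chaperone and ubiquitin genes had 37 members, 22 higher and 14 lower, with a median log2 fold change of 0.23. Secreted liver proteins had 7, of which 2 were higher, 4 lower and 1 equal, with TF the largest. AMBP, the precursor of a plasma protease inhibitor, had its member at 57.3 and 49.96 TPM (4.32% and 4.80%).

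Metabolic enzymes had 21 members, 13 higher and 8 lower. ALDH2, an aldehyde dehydrogenase of mitochondria, had its member at 82.4 and 70.6 TPM (75.7% and 72.7%), and ALDH7A1 at 33.9 and 20.6 TPM (21.6% and 16.5%, ratio 0.59, interval 0.53 to 0.66), with a share difference of -5.14 points that was -7.8 in estimated fragments. The list of cell cycle and DNA repair genes, drawn by symbol prefixes, had 36 members, 20 higher and 16 lower. Its prefix POL also takes in RNA polymerase subunits, so the list is wider than its name. The member of POLR2L, a subunit shared by RNA polymerases, was at 31.1 and 21.0 TPM (39.8% and 28.7%). The 1054 members in no list gave 494 higher and 539 lower, with a median difference of -0.13 points.

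By the position of the stop, members whose stop lay in an exon of the main coding transcript were at least 10 points higher in 52 and lower in 44 of 634. Those whose stop lay in sequence it lacks were higher in 19 and lower in 30 of 476. By distance to the last junction, members at 200 to 500 nt were at least 10 points higher in 19 and lower in 42 of 413, those at 500 nt and above higher in 35 and lower in 21 of 502, and those at 50 to 200 nt higher in 29 and lower in 22 of 365. The background was 7.99% higher and 8.71% lower, and these groups were at 4.6% and 10.2%, 6.97% and 4.18%, and 7.95% and 6.03% in the same order. No difference between the groups was tested.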

How the data were processed

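The authors deposited 1 table of TPM values for 184844 Ensembl transcripts in 2 libraries, made with Trimmomatic, Salmon and GRCh38.p13, per the submitters' processing notes. For these tools, versions and options, and the annotation release, were not given in the sources used here. Salmon divides fragments that match several transcripts, so a transcript's TPM can move against a near-identical one without a change in the cells.

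Transcripts were matched to GENCODE release 29 by identifier without version (161838 matched, holding 93.3% of the TPM in the library without Dox and 93.4% in the other). The same version was found for 1277 members and another for 33. Fold changes were taken on the log2 scale after adding 1 to each TPM, and a fold of 2 and a share difference of 10 points were counted. TPM states no depth. Among genes with 1 transcript, of at least 600 nt, TPM times the length less 300 nt fell within 0.1 of whole multiples of 1 value for 388 of 453 low values (85.7%) without Dox and 402 of 467 (86.1%) with Dox, which gave the fragments and the intervals (Clopper-Pearson, 95%). The fit used the same low values. A transcript of 2000 nt with 1 fragment has 0.040 TPM without Dox and 0.032 with Dox.

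Samples were grouped by title. The treatment label gives 1 µg/ml Dox for both, and the title of 1 says without Dox, which was followed. Named members are the 8 highest by mean TPM, the 8 largest and 8 smallest share differences (genes of at least 10 TPM), the 4 widest of those at 0 in each direction, and the 3 highest of each list. Others were chosen after their values were seen, as were the SR sequences. A gene of the list of NMD factors is not reported here by name. Members and lists were chosen with earlier results of these data known. No test was run, since each group has 1 library. Alternatives were other minimum levels, pseudocounts, denominators and estimated fragments, with 2 added after seeing the data (members with at least 31 windows of their own, and members of the same version). The scripts (Python 3.11.15, numpy 2.4.6, pandas 2.3.3, scipy 1.17.1) were tested on simulated data.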

Additional observations from a re-analysis of the deposited data

How the results depend on the processing

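No paired analysis was possible because each group has 1 library and the labels give no replicate numbers. Of 49 percentages over 12 alternatives, 32 lay within the counting interval of the reported value and 17 moved. The direction with more members changed between settings. Members with a higher share were 49.2% as reported, 52% at a minimum mean of 5 TPM and 51.3% in estimated fragments, both within the counting interval. The 2-fold calls had more lower than higher as reported. There were more higher than lower at 1 TPM (208 and 171 members), at 5 TPM (18 and 16), with a pseudocount of 5 TPM (23 and 22) and in estimated fragments (58 and 56). Members at least 2-fold higher and lower made up 9.71% and 7.98% at a minimum mean of 1 TPM, 2.92% and 2.59% at 5 TPM, 9.31% and 9.39% with a pseudocount of 0.1 TPM, 1.76% and 1.68% with 5 TPM, 4.1% and 4.74% when above 0 in both libraries, and 3.85% and 4.54% with at least 31 windows of their own (added after seeing the data). In estimated fragments 5.11% were at least 2-fold higher and 4.94% lower. Members at least 10 points lower in share made up 3.45% at a minimum of 5 TPM, 4.12% in estimated fragments, 4.72% in genes of at least 10 TPM and 8.27% with at least 31 windows. With the denominator limited to coding and NMD transcripts, the share differences of 3 of 58 named members changed sign, NOL12 (-0.854 points), NDUFB5 (-1.74) and POLR2E (1.71 to -4.15). In estimated fragments 4 of 49 did, EIF3F, UQCRB, RPL13 (0.348 to -0.399) and POLR2E (-2.65), and 17 others were smaller by over 1.5 times. Of 22 named members past 10 points, 17 stayed past it in fragments. Over all genes the median log2 fold change was 0.02. Where the cause of a change is not in the alternative's own construction, the cause was not tested. With 1 library per group, biological variation was not measured.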
